A study of Mus musculus with 4 samples.

Results

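Expression of 7 genes was followed across single cells of the mouse Mesp1 lineage. They were the uroplakin genes Upk3b and Upk1b, the transcription factor genes Wt1 and Bnc1, and the keratin genes Krt8, Krt18 and Krt19. They were taken by symbol, each matched 1 row, and they made up 7 of the 27998 genes counted. The genes had been selected on their measured levels over stages and cell groups in these same libraries, so those levels are given as a description, without tests.

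Cells came from Mesp1Cre;Rosa26-GFPflox/+ embryos of the Swiss Webster strain, in which Cre made from the Mesp1 gene of early mesoderm turns on GFP in that lineage permanently. All groups shared this genotype, and no group without Cre or with a mutation was analysed here. The upper body was dissected at E8.0 and E8.25 (E, embryonic day). For the later pair, E9.5 and E10.5, heart and pharyngeal apparatus were taken, and stage and dissected region therefore cannot be told apart. Living GFP-positive cells of pooled embryos were sorted for 1 droplet library per stage.

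From the earliest to the latest stage the 4 libraries held 7118, 2884, 3921 and 7525 retained cells. Their median depths ranged from 15205 to 35216 UMIs (distinct captured molecules) per cell, and E8.25 was the deepest. Levels are given as CPM, the UMIs of a gene per 1000000 UMIs of the summed cells, with exact Poisson 95% intervals, and shares of cells carry exact binomial (Clopper-Pearson) intervals. Both cover counting error only. With 1 library per stage, no stage difference was tested, and in a sum of cells, fewer expressing cells and less RNA per cell cannot be told apart.

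The mesothelium is the flat epithelium that covers the heart and lines the body cavities. On the heart it is called the epicardium and comes from the proepicardium, a cell cluster that forms at the septum transversum, the mesodermal plate between heart and liver. Wt1 is the classical transcription factor of these cells, Upk3b and Upk1b encode membrane proteins best known from the bladder lining, and Bnc1 encodes a zinc-finger factor of epithelia. Krt8 is a type II keratin that pairs with the type I keratins Krt18 and Krt19 in the filaments of simple epithelia.

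In the RefSeq annotation of GRCm38.p6, Upk3b spans chr5:136038496-136044993, Upk1b chr16:38773182-38800203, Wt1 chr2:105126529-105173614 and Bnc1 chr7:81966657-81992299. Krt8 spans chr15:101996711-102004342 and Krt18 chr15:102028216-102032026, while Krt19 lies apart from them at chr11:100140810-100145926. The start sites of Krt8 and Krt18 lie 23874 bases apart, and transcription runs away from the interval between them. The 250 bases upstream of the start are printed for the 4 members with a RefSeq promoter entry, since Krt8 and Krt18 are detected together while Upk3b and Bnc1 follow other stage courses. Each is written 5′ to 3′ on the strand of its gene, and capitals mark matches on either strand to any of 5 motifs. Transcription factors of the GATA family bind GATAA. The motif of TEAD factors was searched as GGAATG, and that of the AP-1 family as TGANTCA. The GC box was searched as GGGCGG, and the box named for its letters as TATAAA.
Upk3b, chr5:136038246-136038495, plus strand: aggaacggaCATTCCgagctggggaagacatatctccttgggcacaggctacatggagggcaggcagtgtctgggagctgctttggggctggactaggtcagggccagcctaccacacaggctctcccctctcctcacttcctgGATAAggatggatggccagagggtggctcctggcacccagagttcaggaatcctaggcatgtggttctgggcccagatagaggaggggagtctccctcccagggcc
Bnc1, chr7:81992300-81992549, minus strand: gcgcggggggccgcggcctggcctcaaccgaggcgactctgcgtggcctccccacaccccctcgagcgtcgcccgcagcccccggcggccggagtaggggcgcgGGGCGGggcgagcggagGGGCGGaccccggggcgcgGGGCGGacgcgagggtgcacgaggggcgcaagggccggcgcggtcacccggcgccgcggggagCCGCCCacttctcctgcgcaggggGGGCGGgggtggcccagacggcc
Krt8, chr15:102004343-102004592, minus strand: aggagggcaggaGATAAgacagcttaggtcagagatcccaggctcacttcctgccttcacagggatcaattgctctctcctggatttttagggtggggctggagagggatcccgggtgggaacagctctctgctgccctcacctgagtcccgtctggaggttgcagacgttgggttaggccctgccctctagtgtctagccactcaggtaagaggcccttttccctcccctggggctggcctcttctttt
Krt18, chr15:102027966-102028215, plus strand: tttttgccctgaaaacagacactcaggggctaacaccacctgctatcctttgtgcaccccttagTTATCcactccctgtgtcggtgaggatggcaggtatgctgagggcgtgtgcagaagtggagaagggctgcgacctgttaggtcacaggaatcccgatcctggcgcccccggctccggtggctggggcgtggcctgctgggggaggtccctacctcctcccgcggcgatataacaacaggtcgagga
GATAA occurred once each upstream of Upk3b, Krt8 and Krt18, and 23.0% of the 27025 mouse promoters of this length hold it. GGAATG occurred upstream of Upk3b (12.6% of all promoters), and GGGCGG occurred 5 times upstream of Bnc1 (32.9% of all promoters hold it at least once). No window held TGANTCA (6.87% of all promoters) or TATAAA (12.97%). The Bnc1 window was 83.6% G or C with 39 CpG sites, against medians of 52% and 6 over all promoters. The other windows had a GC content between 58% and 60.8%. No motifs overlapped, and a match describes the letters only. No promoter of Wt1, Upk1b or Krt19 is printed.

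The members fell into a rising and a falling set over the stages. From E8.0 to E10.5 Upk3b stood at 0.956, 2.44, 7.93 and 36.6 CPM. At the last stage it was 38.2-fold above its level at the first, a log2 ratio of 5.26 (95% interval 5.02 to 5.51), and the share of cells with an Upk3b UMI went from 1.60% to 8.85%. Upk1b stood at 0.356, 0.585, 0.907 and 7.28 CPM in the same order, a 20.5-fold difference between the last and the first (log2 4.35, 3.96 to 4.78). Most of that difference lay between E9.5 and E10.5, where Upk1b was 8.03-fold and Upk3b 4.61-fold higher at the later stage.

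Wt1 had another course, with its large step a stage earlier. In stage order it was at 0.884, 1.58, 13.5 and 16.2 CPM. The ratio of E9.5 to E8.25 was 8.59-fold, whereas E10.5 was only 1.20-fold above E9.5 (log2 0.26, 0.15 to 0.37). Bnc1 went from 1.32 to 2.06, 3.41 and 3.39 CPM, and the last 2 values did not differ beyond counting error (log2 ratio -0.01, -0.24 to 0.22).

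The 3 keratins were high at the early stages and low at the late ones. Krt8 was at 285, 200, 65.3 and 19.3 CPM from E8.0 to E10.5, which is 14.7-fold lower at the end (log2 -3.88, -3.94 to -3.82). Its share of cells with a UMI was 69.2%, 70.3%, 36.4% and 12.5%. Krt18 was at 223, 190, 80.03 and 34.7 CPM, 6.42-fold lower at the last stage. Krt19 was at 26.2, 22.5, 16.9 and 10.9 CPM, 2.40-fold lower. The order of stages was the same for all 3, and the intervals of neighbouring stages did not overlap.

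**Figure D1:**
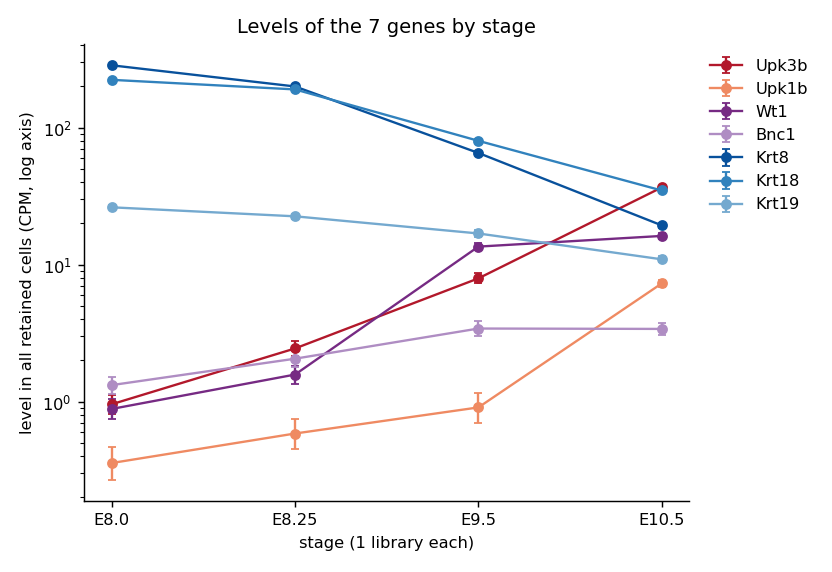
Level of each member (CPM, log axis) in the 4 libraries by embryonic stage, with exact Poisson 95% intervals. Upk3b, Upk1b and Wt1 sit highest at E10.5, whereas Krt8, Krt18 and Krt19 sit highest at E8.0.

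Relatives of the members gave few counts. Among the other uroplakins, Upk1a had 17 to 34 UMIs per library and Upk3bl 14 to 102 UMIs, while Upk2 had at most 1 and Upk3a at most 9. Upk3bl was at 0.673 CPM at E8.0 and 0.109 at E10.5, and none of these 4 genes passed the filter on low counts. The antisense gene Wt1os, counted as a row of its own, had 4, 1, 21 and 130 UMIs, and whether reads of Wt1 and its antisense partner were kept apart by strand is not given in the sources used here.

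To place the members, cells with at least 8000 UMIs were thinned to that depth and sorted by markers that hold no member. The proepicardial gate required UMIs of 3 of the 4 genes Tbx18, Tcf21, Sema3d and Aldh1a2. The septum transversum gate required 3 of the 6 genes Hand1, Gata4, Mab21l2, Hlx, Msx1 and Lhx2, and the cardiac progenitor gate required both Isl1 and Nkx2-5. Cells of none of these gates are called other cells. Within them, cardiomyocytes (at least 1% sarcomere UMIs), endothelial cells (3 of 6 markers) and erythroid cells (at least 5% haemoglobin UMIs) were set apart, and the rest is called ungated. Each cell took the first label whose rule it met, in the order erythroid, endothelial, cardiomyocyte, proepicardial, septum transversum, cardiac progenitor. Erythroid, endothelial or cardiomyocyte cells that also met a gate's rule therefore count as other cells.

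In stage order the proepicardial gate held 5, 2, 63 and 157 cells, of 6617, 2876, 3672 and 6722 cells. Only the last 2 gates passed the minimum of 20 cells for a level. In them, Tbx18 was found in 90.5% and 94.9% of cells and Tcf21 in 93.7% and 93.0%, which the rule of the gate fixes, and the name proepicardial stands for that rule and not for a pure cell type. The septum transversum gate held 532, 152, 261 and 85 cells. At E8.0 and E8.25 it rested on Hand1 (97.2% and 98.0% of its cells) and Msx1 (92.5% and 83.6%), with Lhx2 in at most 3.76%, against 50.2% at E9.5, so the early gate is read as Hand1 and Msx1 mesoderm rather than as a formed septum.

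At E10.5 all 7 members were highest in the proepicardial gate, and in each case its interval lay clear of the next cell group. Upk3b reached 547 CPM there against 24.1 in the septum transversum gate, 23.9 in the cardiac progenitor gate and 23.2 in the other cells, a 23.6-fold excess over the other cells (log2 4.56, 4.47 to 4.65). Upk1b reached 126 CPM against 4.402 in the other cells, a 28.6-fold excess. No Upk1b UMI was found in the 85 septum transversum cells, which allows a level of up to 2.69 CPM. With gates read on all UMIs instead of 8000 per cell, the log2 excess over the other cells was 5.74 for Upk3b and 6.65 for Upk1b. Most E10.5 cells with a given member nevertheless lay outside the proepicardial gate. After thinning, the gate held from 10.1% (Krt18) to 39.2% (Upk1b) of them, and 2.34% of all cells. It held 96 of 453 Upk3b cells, 78 of 521 Wt1 cells and 20 of 153 Bnc1 cells. Ungated were 61.6% of the Upk3b, 79.8% of the Wt1 and 76.5% of the Bnc1 cells, against 71.4% of all cells.

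Markers of other cell types differed between the same E10.5 cells. The 4 neural genes summed to 73.5 CPM in the proepicardial gate against 16.4 in the other cells, of which Tubb3 made up 72.8 and 14.99 CPM, while Sox1 was at 0 and Sox2 and Pax6 had 1 UMI each in the gate. The 4 neural crest genes were at 60.8 against 44.3 CPM, with Sox10 and Foxd3 at 0 in the gate. The 6 surface ectoderm genes were at 4.53 against 3.005 CPM and the 8 endoderm genes at 1.51 against 6.94 CPM, and Trp63, Foxa2 and Sox17 had no UMI in the gate. At E9.5 the gate held Tubb3 at 43.1 against 21.0 CPM in the other cells, with Sox1, Sox2 and Pax6 at 0. The part of Tubb3 and of the neural crest genes in the gate's results was not tested.

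Wt1 was at 160 CPM in the E10.5 proepicardial gate, 10.2 in the septum transversum gate, 9.55 in the cardiac progenitor gate and 12.3 in the other cells. It was 13-fold above the other cells (log2 3.70, 3.56 to 3.85). Bnc1 was at 31.4 CPM in the gate and 2.62 in the other cells, 12.0-fold higher. The septum transversum and other cells did not differ beyond counting error for Upk3b (log2 ratio 0.05, -0.49 to 0.55) or for Wt1 (-0.26, -1.14 to 0.49). This did not hold with other gates. With 1 fewer gate marker the ratios were 1.36 (1.12 to 1.58) for Upk3b and 0.33 (0.0022 to 0.64) for Wt1, and with gates read on all UMIs they were 2.14 (1.86 to 2.41) and 0.93 (0.51 to 1.32).

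The keratins, low in the E10.5 library as a whole, were not low in this gate. Krt8 was at 167 CPM in the proepicardial gate, 63.5 in the septum transversum gate, 59.0 in the cardiac progenitor gate and 13.7 in the other cells, a 12.2-fold excess over the other cells. Krt18 was at 240 CPM against 26.3 in the other cells (9.14-fold), and Krt19 at 148 against 7.24 (20.5-fold). Krt8 and Krt18 were also above the other cells in the septum transversum gate, by 4.64-fold and 3.67-fold, whereas Krt19 was not beyond counting error (log2 0.28, -0.68 to 1.09), though with 1 fewer gate marker it was (1.69, 1.296 to 2.06).

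The cell types that should lack these genes set the background. At E10.5, 61.1% of proepicardial cells had an Upk3b UMI after thinning, against 2.24% of erythroid and 1.53% of endothelial cells. Wt1 was found in 49.7%, 0.712% and 0.612% of them, and Krt8 in 42.7%, 0.610% and 1.83%. Median depths before thinning were 19623 UMIs in the proepicardial gate, 28528 in erythroid and 18453 in endothelial cells. Upk3b was nevertheless found in 13.5% of cardiac progenitor cells and 10.0% of cardiomyocytes at E10.5, above both background groups.

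**Figure D2:**
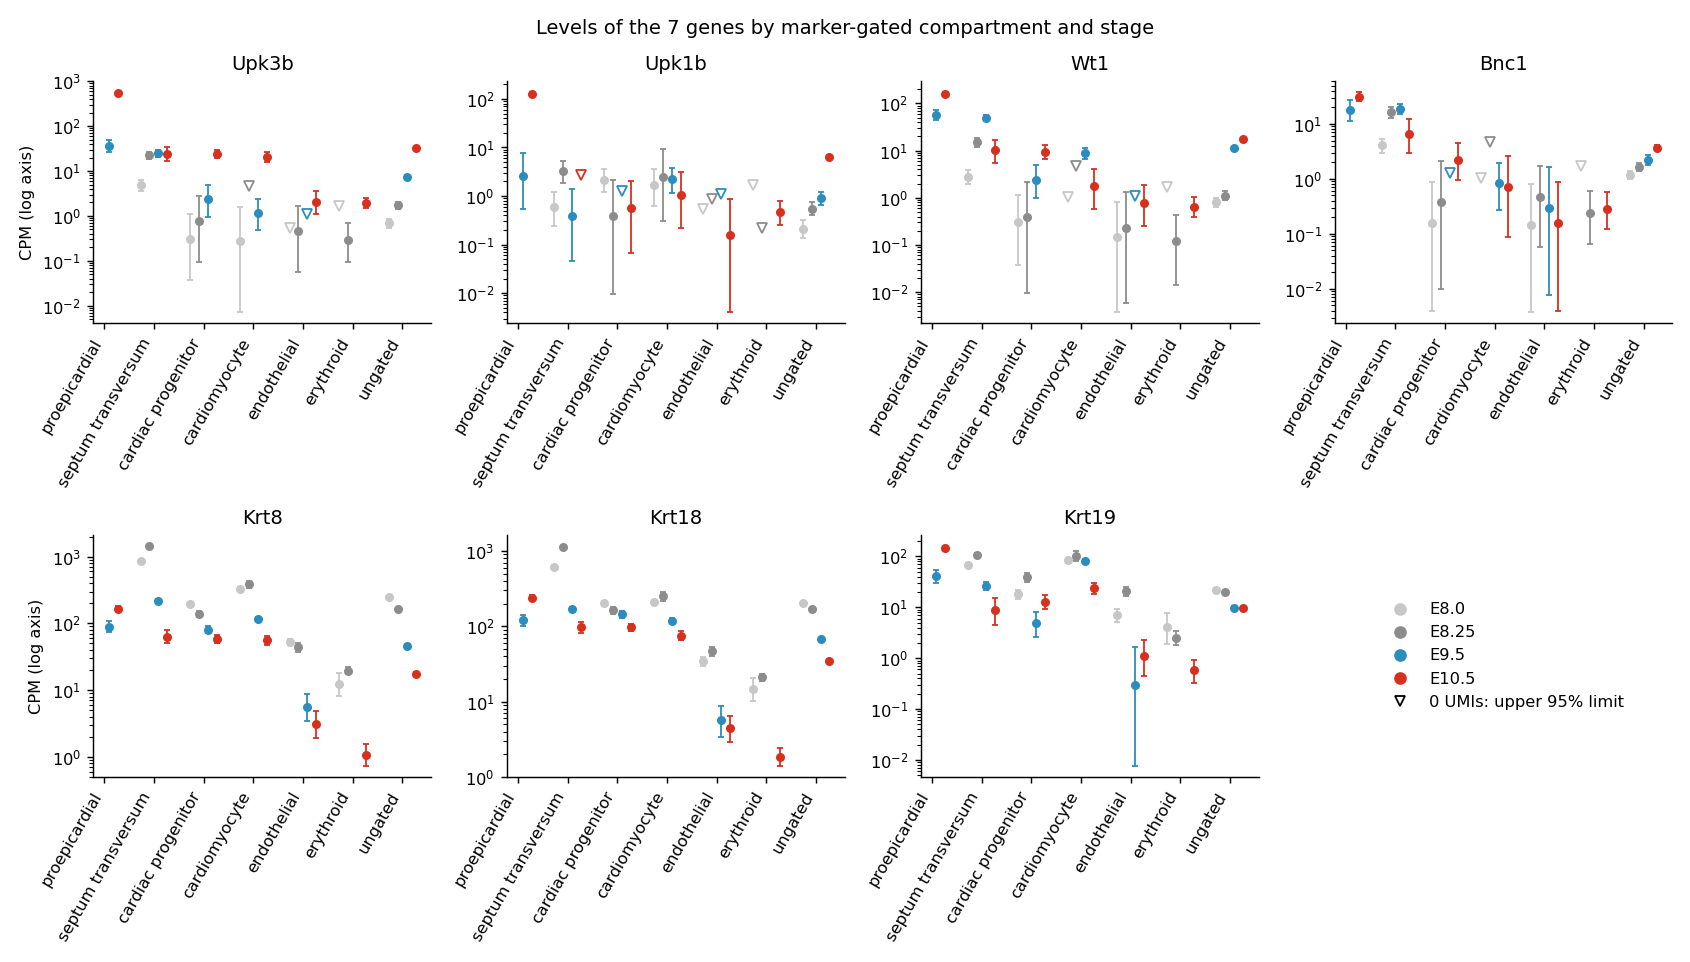
Level of each member (CPM, log axis) by cell group (horizontal axis) and stage (colour), for sums of at least 20 cells, with exact Poisson 95% intervals. Open triangles mark sums with 0 UMIs at their upper 95% limit. Of the E10.5 points, the proepicardial one is the highest in every panel, up to 547 CPM for Upk3b.

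At E9.5 the pattern was different. Upk3b was at 36.2 CPM in the proepicardial gate, 24.7 in the septum transversum gate, 2.41 in the cardiac progenitor gate and 6.32 in the other cells. Wt1 was at 56.9 CPM in the proepicardial and 49.2 in the septum transversum gate, and Bnc1 at 18.1 and 18.9. Between these 2 gates the log2 ratio was 0.55 for Upk3b, with an interval that just excluded 0 (0.012 to 1.06). That interval covers counting error only, and the share of cells with an Upk3b UMI went the other way. After thinning it was 5 of 63 proepicardial cells (7.94%) and 34 of 261 septum transversum cells (13.03%), with overlapping intervals. With all UMIs it was 12.7% and 16.5%. An Upk3b excess of the proepicardial gate is therefore not settled at this stage. Wt1 (0.21, -0.20 to 0.60) and Bnc1 (-0.06, -0.82 to 0.63) did not differ beyond counting error. Upk1b rested on 3 UMIs in the proepicardial gate, and its log2 ratio of 1.41 over the other cells had an interval from -0.91 to 3.03, against 3.20 (2.40 to 3.99) with gates read on all UMIs.

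The E9.5 keratins did not peak in the proepicardial gate. Krt8 was at 89.6 CPM there and 220 in the septum transversum gate, a log2 ratio of -1.29 (-1.597 to -1.002) between the gates. Krt18 was at 120 and 168 CPM (log2 -0.49, -0.76 to -0.23). Krt19 was highest in the 326 cardiomyocytes, at 79.9 CPM, against 40.5 in the proepicardial and 26.4 in the septum transversum gate.

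At the early stages the Hand1 and Msx1 cells of the septum transversum gate carried most members at their highest levels. At E8.25 Krt8 was at 1421 CPM in this gate and 136 in the other cells, 10.47-fold higher, and Krt18 was at 1138 against 140 CPM, 8.13-fold higher. Upk3b was at 22.7 against 1.41 CPM (16.1-fold), Wt1 at 14.9 against 0.897 (16.6-fold) and Bnc1 at 16.2 against 1.35 (12.1-fold). At E8.0 the same ratios were smaller, 3.57-fold for Krt8, 7.64-fold for Upk3b, 3.82-fold for Wt1 and 3.71-fold for Bnc1.

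Upk1b and Krt19 were the exceptions. At E8.0 Upk1b was highest in the cardiac progenitor gate, at 2.17 CPM on 14 UMIs, though its interval overlapped that of the next group. Krt19 was highest in cardiomyocytes at E8.0, at 83.9 CPM against 68.9 in the septum transversum gate, and at E8.25 these groups stood at 101 and 105.2 CPM with overlapping intervals. At E10.5 Krt19 in cardiomyocytes was at 23.5 CPM, the lowest of the 4 stages.

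Spread over libraries, which differ in stage, was wide. In the proepicardial gate Upk3b averaged 292 ± 361 CPM (SD, n = 2 libraries), Wt1 108 ± 72.8 and Krt8 128 ± 54.6. In the septum transversum gate the averages were 19.1 ± 9.55 CPM for Upk3b, 19.3 ± 20.6 for Wt1 and 640 ± 623 for Krt8 (n = 4).

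Detection in the same cell was counted after thinning to 8000 UMIs. Of cells with Upk3b, 0 of 40 also had Wt1 at E8.0 (upper limit 8.81%). In stage order the next shares were 7 of 45 (15.6%), 44 of 127 (34.6%) and 215 of 453 (47.5%, 42.8 to 52.2). Wt1 was found in 4.88% of the E10.5 cells without Upk3b. Read from the other side, Upk3b was found in 16.3%, 16.7% and 41.3% of Wt1 cells from E8.25 onward. Among all thinned cells, Wt1 was found in 44 of 6617, 43 of 2876, 264 of 3672 and 521 of 6722, and Upk3b in 40, 45, 127 and 453 of them. Both genes were thus also more frequent late, and the rising overlaps alone do not show closer joint detection. At this depth both overlap shares were highest at E10.5, and most Wt1 cells lacked an Upk3b UMI at every stage. Neither statement held at all settings, since with all UMIs Wt1 was found in 58.0% of the E9.5 and 49.8% of the E10.5 Upk3b cells, and with 2 UMIs needed for detection 50.8% of Wt1 cells had Upk3b at E10.5.

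At E10.5, 128 of 158 Upk1b cells had Upk3b (81.0%) but only 28.3% of Upk3b cells had Upk1b. Earlier, 0 of 20, 4 of 19 and 5 of 19 Upk1b cells had Upk3b. Among all thinned cells, Upk3b was found in 40 of 6617, 45 of 2876, 127 of 3672 and 453 of 6722. Its share over all cells was thus also highest at E10.5, and the higher overlap there does not by itself show closer joint detection. Krt8 cells had Krt18 in 64.0%, 63.6%, 55.8% and 52.3% at the 4 stages. Krt18 cells had Krt8 in 71.2%, 59.3%, 48.2% and 32.2%. Over all thinned cells, Krt18 was found in 3148 of 6617, 1141 of 2876, 1096 of 3672 and 921 of 6722. Krt8 was found in 3505, 1064, 947 and 568 of the same cells. The shares of both keratins over all cells were thus also lower late, and their falling overlaps alone do not show weaker joint detection.

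Upk3b cells were largely a subset of Krt8 cells early, and less so late. At E8.0 and E8.25, 95% and 95.6% of Upk3b cells had Krt8, but only 1.08% and 4.04% of Krt8 cells had Upk3b. At E10.5, 45.3% of Upk3b cells had Krt8 and 36.1% of Krt8 cells had Upk3b. Krt8 was found in 52.7% of E8.0 cells without Upk3b and in 5.79% of such cells at E10.5.

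**Figure D3:**
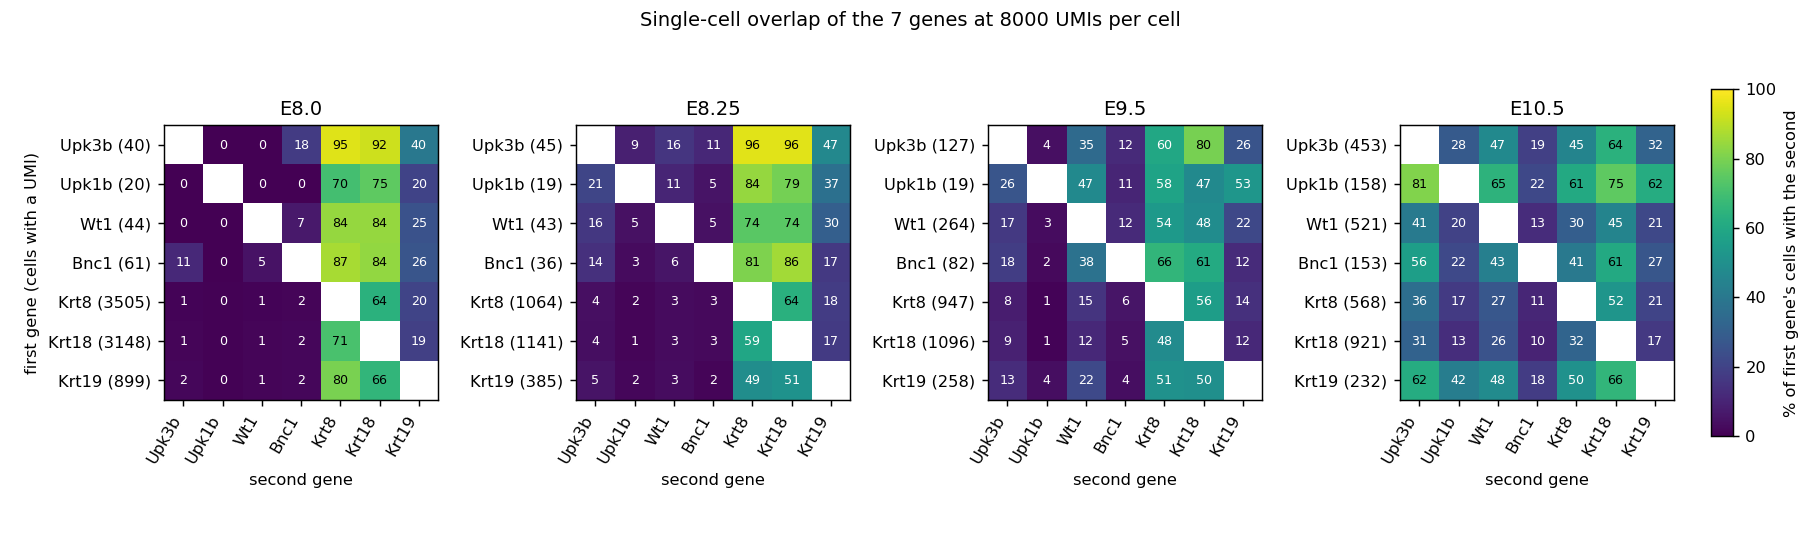
Percent of cells with the row gene that also had the column gene, per library, in cells thinned to 8000 UMIs. At E8.0 the Krt8 and Krt18 columns are at 64.0% or more in every other row, and at E10.5 the Upk3b, Upk1b and Wt1 columns are higher than at E8.0 in every other row, up to 81.0% of Upk1b cells with Upk3b.

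Pearson correlations across retained cells, on log-scaled counts, describe the same course. Points of 1 library share its depth range and cell mixture, and most values of the rare genes are 0. Krt8 with Krt18 gave 0.78, 0.89, 0.54 and 0.58 over the 7118, 2884, 3921 and 7525 cells of the stages in order. Upk3b with Upk1b gave -0.01, 0.26, 0.17 and 0.72, and Upk3b with Wt1 gave 0.11, 0.33, 0.35 and 0.58.

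Genes were ranked by the smaller of their correlations with a member at E9.5 and E10.5, among 12465 genes found in at least 1% of cells of both libraries. Most like Upk3b were Lrrn4 (0.35 and 0.72), a membrane protein gene of mesothelium, then the members Wt1 and Krt18, then Car4, Tm4sf5, Lhx9, Tmem108, Dcn, Podxl and Ezr. Most like Wt1 were the member Upk3b (0.35 and 0.58), the gate gene Tbx18 (0.34 and 0.37), the member Bnc1, Pmp22, the member Krt8, Lhx9, Aplp1, Stk26, Lrrn4 and Nrp1. The correlation of Upk3b with Lrrn4 was 0.17 at E8.0 and 0.48 at E8.25, while that of Wt1 with Tbx18 was -0.03 and -0.02.

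Cells with UMIs of 4 or more of the 7 members numbered 47 (0.710%), 45 (1.56%), 77 (2.10%) and 215 (3.20%, 2.79 to 3.65) from the first to the last stage. All 7 members were found in 10 cells at E10.5 and in no cell before, which at E9.5 allows a share of up to 0.1004%. Of the 215 cells, 77 lay in the proepicardial gate (35.8%), 2 in the septum transversum gate and 8 in the cardiac progenitor gate. Another 2 were cardiomyocytes and 126 were ungated, so the proepicardial gate captured a minority. At E9.5, 5 of the 77 cells lay in the proepicardial gate, 28 in the septum transversum gate and 39 were ungated. At E8.0 and E8.25, 18 of 47 and 22 of 45 lay in the septum transversum gate, and 27 and 23 were ungated. No cell with 4 or more members was erythroid or endothelial at any stage. Erythroid cells made up 0.952%, 10.9%, 0.109% and 14.6% of all thinned cells in stage order, and endothelial cells 4.86% to 5.04%.

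**Figure D4:**
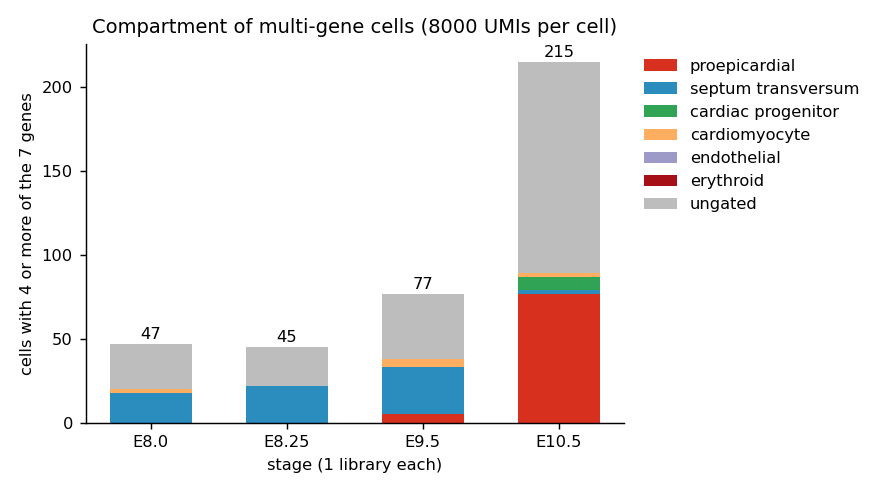
Number of cells with UMIs of 4 or more members (vertical axis) in each library, thinned to 8000 UMIs per cell and stacked by cell group. The bars reach 47, 45, 77 and 215 cells, and the gated part is mostly septum transversum up to E9.5 and mostly proepicardial at E10.5.

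Other genes of these cells differed by stage. Hand1, a transcription factor of extraembryonic and septum mesoderm, was at 888, 831, 125 and 12.5 CPM in cells with 4 or more members from E8.0 to E10.5. Tbx18, which marks the proepicardium, had no UMI in them at the early stages and was at 192 and then 305 CPM at the later ones. Lrrn4 was at 66.3, 87.1, 57.8 and 156 CPM, against 4.55, 2.04, 1.37 and 0.865 CPM in cells with no member. Cells of the same member count therefore carried Hand1 early and Tbx18 late, with Lrrn4 throughout.

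At E10.5 genes outside the 7 were read in the cells with 4 or more members. This is a description and not an independent check of the label mesothelial. The members and lists were chosen with earlier results of these data known, and Aldh1a1 and Msln had been seen when the gates were set. Aldh1a1 was at 102 CPM in the 215 cells, Podxl at 100 and Krt7 at 133, against 0.384 CPM of Krt7 in cells with no member. The adult mesothelial genes Msln and Muc16 had only 6 and 8 UMIs in these cells, and none at the earlier stages in cells with 4 or more members. Cdh1, the cadherin of most epithelia, had 1 UMI. The cells with 4 or more members were also deeper, with a median of 22200 UMIs against 16221.5, and the part of depth in these differences was not tested beyond the thinning.

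Markers of other cell types in the same 215 cells were lower for some lists and higher for others. The 8 endoderm genes summed to 2.50 CPM against 6.45 in cells with no member, and the 4 neural crest genes to 38.7 against 44.7 CPM, with Sox10 and Foxd3 at 0. The 6 surface ectoderm genes were higher, at 12.1 against 1.95 CPM, of which Grhl3 made up 11.7 and 0.833, while Trp63 had 0 UMIs. The 4 neural genes were also higher, at 107 against 13.4 CPM, of which Tubb3 made up 106 and 12.2, with Sox1 at 0, Sox2 at 1.04 and Pax6 at 0.208 CPM. At E9.5 the neural genes were at 140 against 15.8 CPM, and in the cells with 4 or more members all of this was Tubb3. The part of these markers in the result was not tested.

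Wt1 cells at E10.5 differed by Upk3b. The 215 cells with both genes had Tbx18 at 278 CPM, Lrrn4 at 140, Aldh1a1 at 97.4 and Krt7 at 121. The 306 cells with Wt1 and no Upk3b UMI had 23.8, 8.49, 0.618 and 1.44 CPM of the same genes. Their median depths were 21418 and 14410.5 UMIs before thinning. Tcf21 differed less, at 254 against 56.3 CPM.

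Genes outside the 7 were tested between the gates on UMI sums per library and gate, with edgeR's quasi-likelihood test, a block for the library and Benjamini-Hochberg adjustment over 12282 genes. The fit used 14 sums, of which 2 were proepicardial (E9.5 and E10.5). Against the other cells, that is cells of none of the 3 gates, 129 genes were higher (1.05% of 12262 once the 7 members and 13 genes listed for the gates were set aside, which are the genes named above and Mef2c, listed for the cardiac progenitor gate but not used in it) and 102 lower (0.832%). Against the septum transversum gate 8 were higher (0.0652%) and 5 lower (0.0408%). Against the cardiac progenitor gate 125 were higher (1.02%) and 65 lower (0.53%).

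These counts depended on the libraries. Without E10.5 they fell to 1, 0 and 0 calls, although 7.95%, 6.43% and 8.34% of 12823 genes had an unadjusted p under 0.05. Without E8.0 they were 100, 8 and 26, without E8.25 they were 116, 7 and 71, and without E9.5 they were 219, 59 and 154. With DESeq2 on all libraries the counts were 469, 176 and 562, and without the block that pairs the sums of a library they were 1, 1 and 10.

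Of 18 other mesothelial and epicardial genes, 15 were tested. Lrrn4, Aldh1a1, Gpm6a and Rspo1 among them had been looked at when the gate thresholds were set, so their values are a description and they are left out of the counts. Aldh1a1, a retinoic acid synthesis enzyme, was at 3.45 CPM in the proepicardial gate against 0.552 in the other cells at E9.5 and at 83.4 against 2.75 at E10.5. Lrrn4 was at 18.1 against 4.48 and 122 against 5.40 CPM.

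The lists here and below were chosen with earlier results of these data known. Their tests and medians are therefore not independent of the data. Of the remaining 11 genes, 3 rose over the other cells and none fell, and their median log2 difference was 0.79 against -0.02 over all genes. Itga4, an integrin gene, was at 29.3 against 7.26 CPM at E9.5 and 78.3 against 8.22 at E10.5 (log2 2.77, SE 0.50, edgeR adjusted p = 0.0232). Podxl, a sialomucin of apical membranes, was at 19.0 against 10.98 and 78.9 against 7.91 CPM (log2 2.61, SE 0.55, edgeR adjusted p = 0.0397). Pdpn, named because it passed the test, had a log2 difference of 1.84 (edgeR adjusted p = 0.0485). These calls rested on single libraries, with none of the 3 left without E8.0 or without E10.5, Itga4 alone without E8.25 and Podxl alone without E9.5. E8.0 and E8.25 gave no proepicardial sum to the fit, so a call lost without them lost no proepicardial data. Leaving them out changed the set of genes tested and the shared estimate of the spread. It can also change the log2 difference itself, since the fit estimates differences between gates over all libraries together. Which of these lost the calls was not tested. None of the 11 genes passed against the septum transversum gate. Itga4 and Efemp1 passed against the cardiac progenitor gate, where Itga4 was lost without E8.0, Efemp1 without E8.25 or E9.5, and both without E10.5.

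Of 13 other keratin and plakin genes, 7 were tested and 1 rose over the other cells. Krt7, a type II keratin of simple epithelia, was at 1.72 against 0.284 CPM at E9.5 and 104.6 against 3.95 at E10.5 (log2 4.33, SE 0.54, edgeR adjusted p = 0.0032). The next in order did not pass, with log2 differences of 3.46 for Krt14 and 1.38 for the desmosome gene Dsp (edgeR adjusted p = 0.0845 and 0.105). Krt7 also passed against the cardiac progenitor gate (edgeR adjusted p = 0.0095) but not against the septum transversum gate (0.0585). Without E9.5 it passed in all 3 comparisons, the septum transversum gate included (edgeR adjusted p = 0.0127), and without E10.5 in none.

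Of 25 epithelial junction and polarity genes, 18 were tested and Cdh3 alone rose over the other cells. This cadherin gene was at 32.8 against 9.504 CPM at E9.5 and 36.9 against 6.63 at E10.5 (log2 2.07, SE 0.45, edgeR adjusted p = 0.0416). Dsg2, Cldn3 and Pard6b came next, with edgeR adjusted p of 0.0513, 0.0535 and 0.0631. The list's median log2 difference over the other cells was 0.99 against -0.02 over all genes. It was smaller against the septum transversum gate (0.39) and the cardiac progenitor gate (0.15), and none of the list's genes passed against these 2 gates. Cdh3 was lost when any 1 of the 4 libraries was left out (edgeR adjusted p from 0.0622 to 0.536). Without E9.5, Crb2, a polarity gene named because of this, passed over the other cells and against the cardiac progenitor gate instead (edgeR adjusted p = 0.0164 and 0.0349).

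None of the 16 mesenchymal and transition genes, and none of the 14 tested retinoic acid and signalling genes, passed in any of the 3 comparisons. Their median log2 differences over the other cells were 0.01 and -0.02. Prrx1 had a log2 difference of -0.91 and Vim one of 1.04 (edgeR adjusted p = 0.107 and 0.163). Tgfb2 was at 222 against 73.7 CPM at E9.5 and 85.8 against 45.4 at E10.5 (edgeR adjusted p = 0.0784), and Crabp1 had a log2 difference of -2.48 (0.105).

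**Figure D5:**
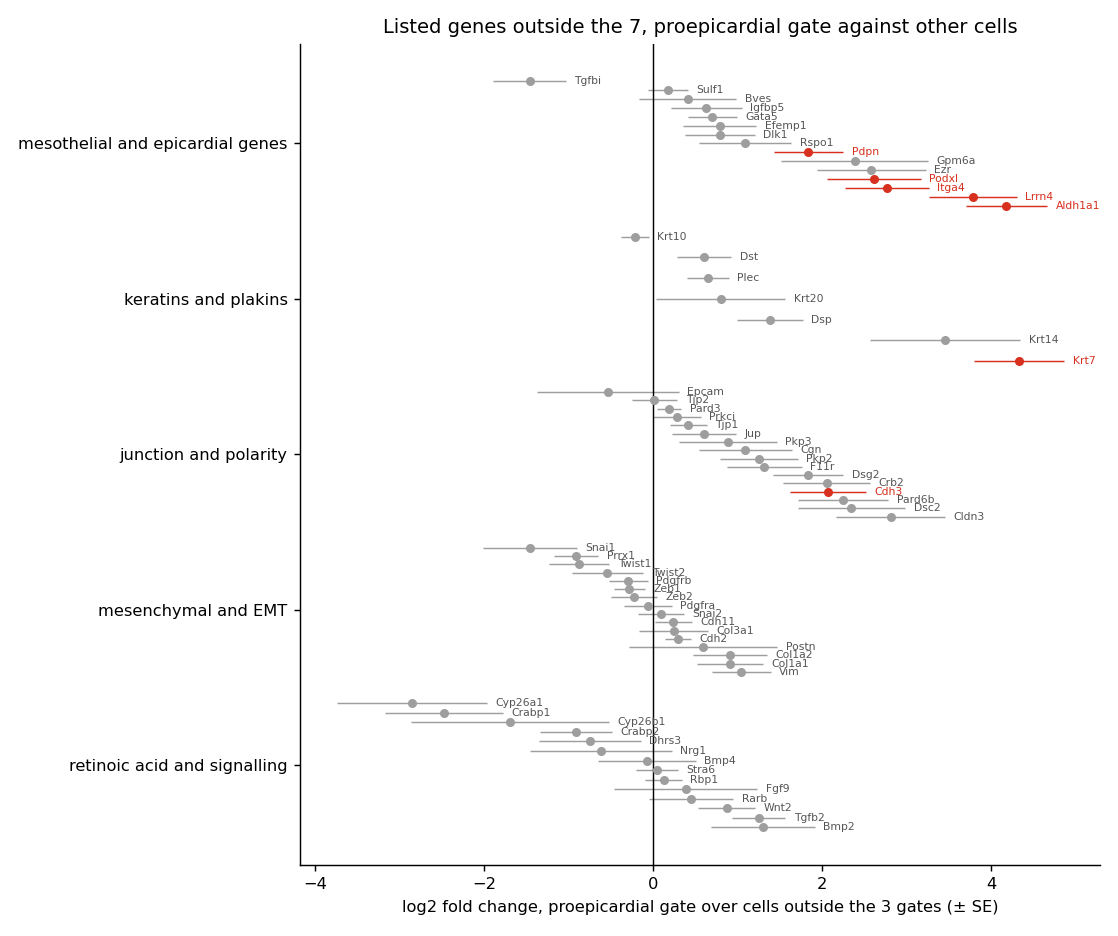
Log2 difference of the proepicardial gate over the other cells, with its standard error, for 68 of the 70 tested genes of the lists, by list. Cldn6 and Cldn7, with 0 UMIs in the proepicardial sums, are not drawn, and red marks an edgeR adjusted p under 0.05. The red points are Aldh1a1, Lrrn4, Itga4, Podxl and Pdpn, then Krt7, then Cdh3, all above 0. Aldh1a1 and Lrrn4 had been seen when the gates were set.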

How the data were processed

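The authors deposited raw UMI counts per gene and cell barcode, not normalized. Per the submitters' processing notes these came from Cell Ranger 3.1.0 and mm10, and the strand setting is not given in the sources used here. Barcodes with at least 1000 genes and at most 10% mitochondrial UMIs were retained, and the highest Scrublet scores (Scanpy 1.11.5) were removed at 0.8% per 1000 cells, which took out 70 to 517 cells per library. Libraries shared 16 to 88 barcodes in pairs (0.541% to 1.39% of the smaller one), and barcodes were kept as separate cells. Retained UMIs totalled 70599266 to 151615964 per library. Gates, overlaps and shares were read after thinning to 8000 UMIs, which left out 501, 8, 249 and 803 shallower cells, while CPM used all UMIs of the gated cells.

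The members and lists were chosen with earlier results of these data known. The gate thresholds were set after gate sizes and some markers outside the members (Msln, Lrrn4, Gpm6a, Rspo1, Aldh1a1, Tbx5, Foxf1 and Col3a1) had been seen, and before the members' levels in the gates. Sums of at least 20 cells entered edgeR 4.0.16 (quasi-likelihood, TMM, low counts filtered) in R 4.3.3 with limma 3.58.1, tested on simulated counts for the same genes. Alternatives used DESeq2 1.42.0, and the rest Python 3.11.15, NumPy 2.4.6 and SciPy 1.17.1. Samples are separate libraries of separate stages, and sums of 1 library share its embryos. With the library as a block, p-values measure how far differences between gates vary from library to library. With 1 library per stage, that spread holds stage differences and may be partly technical, and it holds no replicates of a stage. Named beyond the members were, of each list, up to 4 genes with the smallest adjusted p in the comparison described, and the 10 genes most like Upk3b and Wt1. No columns of per-sample values were left out.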

Additional observations from a re-analysis of the deposited data

Results flagged for a closer look

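Some members stood on opposite sides of the other cells in the cardiac progenitor gate at different stages. That gate holds cells with both Isl1 and Nkx2-5 that had met no earlier label's rule. The counting intervals excluded a ratio of 1 on both sides. These differences between stages were not tested, since each stage has 1 library. The log2 ratio of Upk1b in this gate over the other cells was 3.19 at E8.0, on 14 UMIs, and -2.97 at E10.5, on 2 UMIs. That of Krt8 was -0.28 at E8.0 and then 0.67 and 2.11 in the later pair of libraries, while Krt8 in the other cells went from 240 to 13.7 CPM. That of Krt19 was -0.35, 1.15, -1.74 and 0.84 in stage order, with no single order over the stages.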

How the results depend on the processing

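Of 123 alternative log2 ratios for 34 member results, 77 stayed within counting error, 45 moved and 1 reversed, which was Krt19 in the E9.5 septum transversum gate over the other cells (0.72, and -0.16 with 1 fewer gate marker). Without erythroid-gated cells the E10.5 to E8.0 log2 ratios were 5.58 for Upk3b, 4.52 for Wt1, 1.67 for Bnc1, -3.56 for Krt8, -2.37 for Krt18 and -0.94 for Krt19. The E10.5 proepicardial ratios over the other cells with 1 more gate marker were 4.70 for Upk3b, 3.87 for Wt1, 3.23 for Bnc1, 3.37 for Krt18 and 4.65 for Krt19. With 1 fewer they were 4.91 for Upk3b, 5.66 for Upk1b, 3.26 for Wt1, 3.17 for Krt8, 2.98 for Krt18 and 4.83 for Krt19. With gates read on all UMIs they were 5.74, 6.65, 3.91, 4.10, 3.85, 3.65 and 5.26 in the members' order, and 3.20 for Upk1b at E9.5. At E9.5 with 1 more marker the proepicardial gate held 1 cell and gave no value.

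Overlaps moved with depth and with the detection limit, given here at 4000 UMIs, at all UMIs and with 2 UMIs needed. Upk3b cells with Wt1 were 58.0% and 15.6% at E9.5 (all, 2 UMIs) and 32.7% and 35.8% at E10.5 (4000, 2 UMIs). Wt1 cells with Upk3b were 24.2% and 7.87% at E9.5 and 36.4% and 50.8% at E10.5 in the same settings. Krt8 cells with Krt18 were 43.0%, 69.9% and 47.0% at E9.5 and 44.6%, 57.3% and 57.1% at E10.5. Cells with 4 or more members were 0.708%, 5.83% and 0.327% at E9.5 and 1.79%, 4.51% and 1.55% at E10.5.

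Counts of called genes against the other cells, the septum transversum gate and the cardiac progenitor gate were 231, 13 and 190. They were 469, 176 and 562 with DESeq2, 494, 140 and 640 with 1 more gate marker, and 1, 1 and 10 without the library block. Against the septum transversum gate they were 51 with no filter on low counts and 25 without TMM. Leaving out 1 library at a time gave 1 to 219, 0 to 59 and 0 to 154 calls, lowest without E10.5, and the lone proepicardial sum left in 2 of these fits was assumed to vary like the others. The library block pairs the sums of a library across gates, and stages could not be paired because each has 1 library. The cause of these shifts was not tested.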
